A study of Homo sapiens with 16 samples.

Results

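RAD51B, a gene of 863318 nt on the plus strand of chromosome 14 (67819779 to 68683096, RefSeq coordinates of GRCh38.p14), held 17 of the 13398 pseudouridine sites listed for HEK293T cells. The sites were taken by gene symbol from the deposited site table, and all 17 were deposited as intronic, under the transcript ENST00000488612.5. The gene was selected on its number of intronic sites and chosen with its median deletion level of 20% already known, so both are given as descriptions, without a test. The table carries 1 pooled value per site and no value per library.

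The RAD51B protein acts with RAD51C, RAD51D and XRCC2 in a complex that takes part in homologous recombination, the repair of DNA breaks by copying from an intact partner. Introns are transcribed as part of pre-mRNA and removed by the spliceosome, so an intronic pseudouridine is read in RNA that has not been spliced, or in excised intron RNA. Pseudouridine is an isomer of uridine made by pseudouridine synthases, and it occurs in pre-mRNA as well as in stable RNAs.

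HEK293T is a transformed human line derived from embryonic kidney. In PRAISE-seq, sulfite and bisulfite convert pseudouridine to an adduct at which reverse transcriptase drops the base, and the share of reads with a deletion at a uridine is the deletion level. The libraries fall by title into 6 groups: HEK293T controls with 2 treated and 2 non-treated libraries, HEK293T cells without PUS1, PUS7 and RPUSD4 with 3 treated and 3 untreated libraries, and 3 treated and 3 input libraries of HuCCT1, a cholangiocarcinoma line. Total RNA was depleted of ribosomal RNA in all groups, and neither the number of knockout clones nor whether replicates were separate cultures is given in the sources used here. Which of these libraries the site values were made from is not given either, so knockout and control cells are not compared for RAD51B. A table of pseudouridine sites holds no expression values, and the cell line was not checked by marker genes.

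The 17 contexts are shown because sequence around the site is what can be compared between the sites directly. Each is 11 bases long, written 5′ to 3′ on the strand of the site as in the deposited table, with T for uridine and the listed uridine as the capital. The sites are numbered by position along the gene. The first set holds the 4 sites in a run of at least 4 uridines.
Site 1: gttttTggaga
Site 2: tttttTccaca
Site 7: catttTgtggt
Site 16: tttttTctcca

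The second set holds the pairs of neighbouring uridines that were both listed, sites 3 and 4 on the minus strand and sites 12 and 13 on the plus strand.
Site 3: tatgtTgcaca
Site 4: ctatgTtgcac
Site 12: aaggaTtgaac
Site 13: aggatTgaaca

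The third set holds the remaining sites in runs of 2 or 3 uridines.
Site 8: gtattTggaga
Site 14: agtatTgaaaa
Site 15: tgattTctttg
Site 17: tgagtTccttg

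The fourth set holds the 5 sites whose uridine has no uridine next to it.
Site 5: atataTaaata
Site 6: atggcTcactg
Site 9: tgctaTgtaat
Site 10: aataaTcacgt
Site 11: tacaaTcccca

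The sites were unevenly spread along the gene. The first, at position 67874961, lay 55.2 kb from the RefSeq start, and the last, at position 68540252, lay 142.8 kb before the end. Of the 17 sites, 11 lay in the first 25% of the gene, and these 11 fell within 122.3 kb, or 14.2% of its length. The 3 later stretches of 25% held 2 sites each. The first 11 sites had a median coverage of 41 reads and a median level of 17.1%, and the last 6 had 26 reads and 24.25%. Read depth is given at listed sites only, so whether the spread of sites follows that of reads was not tested. The longest stretch without a site, 185.6 kb, separated sites 15 and 16. With sites on one strand within 100 nt of each other counted once, the gene held 15 loci, and neighbouring loci lay a median of 13.9 kb apart. The table gives no exon boundaries, so distances to splice sites were not analysed here.

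**Figure D1:**
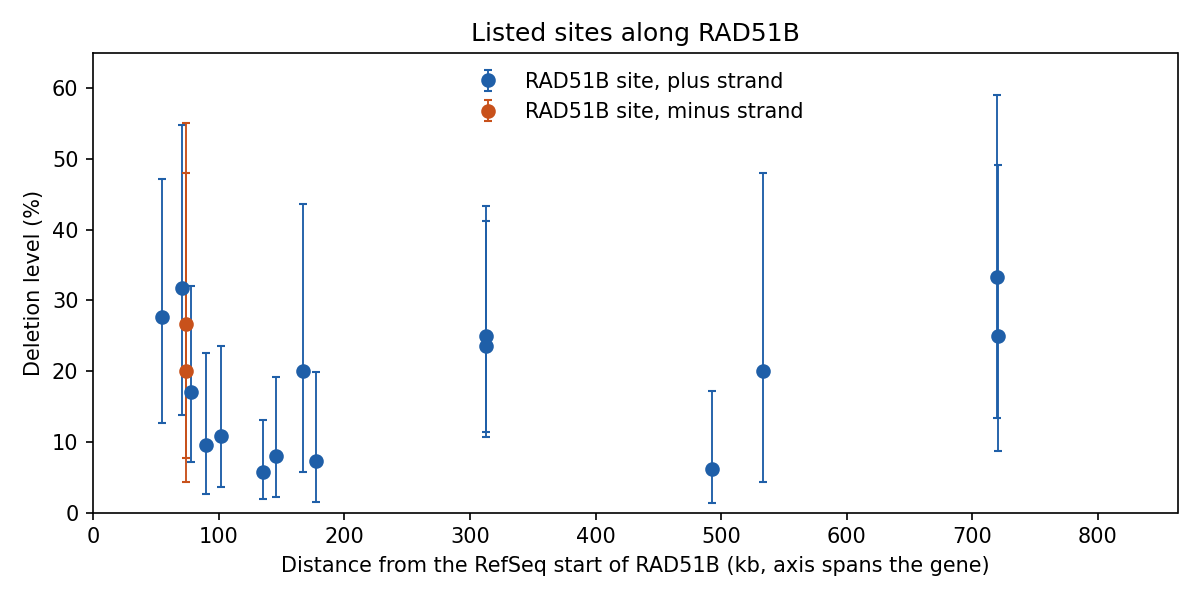
Deletion level in percent (vertical axis) of each of the 17 RAD51B sites against its distance in kb from the RefSeq start of the gene (horizontal axis, spanning the whole gene). Points are coloured by strand and bars are 95% Clopper-Pearson intervals. In the first 25% of the gene, where 11 of the sites crowd, levels under 10% and of at least 20% both occur. After that stretch, site 14 alone is under 20%.

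Levels ranged from 5.8% to 33.3%, with a median of 20% and quartiles of 9.5% and 25%. The deletion reads behind them numbered 3 to 8 per site and the covering reads 15 to 86, so single levels were imprecise: the 95% Clopper-Pearson intervals, which cover counting error only, were 11.1 to 47.3 points wide. Summed over the 17 sites, 87 of 574 reads carried the deletion, or 15.2% (interval 12.3 to 18.4%). That interval treats all reads as independent and of a common level, although levels differed between sites and neighbouring listed bases can share reads. Both the p-value and the FDR of all 17 sites stood at exactly 0 in the authors' deposited table, as did the p-value at 98.8% of all its sites.

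The highest levels stood at runs of uridine. Site 16, at position 68539029 in a run of at least 6 that reaches the 5′ edge of the context, had 33.3% (6 of 18 reads, interval 13.3 to 59.0%). Site 2, at position 67890392 and also in a run of at least 6 reaching that edge, had 31.8% (7 of 22 reads, interval 13.9 to 54.9%). Their contexts share the uridine run and the C after it and differ at 2 of 11 bases (C8T and A9C from site 2 to site 16, counted from the 5′ end of the context). Site 1, at position 67874961 in a run of 5, had 27.6% (8 of 29 reads, interval 12.7 to 47.2%). Runs were not always high, since site 7, at position 67921627 in a run of 4, had 10.9% (5 of 46 reads, interval 3.62 to 23.6%).

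The lowest level belonged to a context that nearly repeats that of site 1. Site 8, at position 67954811, differs from site 1 at a single base of the context (T3A from site 1 to site 8), which shortens the run from 5 to 3 uridines. It had 5.8% (5 of 86 reads, interval 1.91 to 13.0%) at the deepest coverage in the gene. The intervals of the pair overlap narrowly, and the pair was picked after its values were seen. Elsewhere in the table, the central 7 bases of site 1 occurred at 28 sites of other genes with a median of 11.1% (range 5.0 to 60%). Those of site 8 occurred at 7 sites with a median of 17.2% (range 10.5 to 46.7%), so the order of these medians was the opposite of that in RAD51B. Neither comparison was matched on coverage. At the 29 reads of site 1 no level under 10.3% could be listed, and at the 86 of site 8 none under 5.0%.

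Both pairs of neighbouring uridines were listed at 20% or more. On the plus strand, site 12 at position 68132620 had 25% (8 of 32 reads, interval 11.5 to 43.4%) and site 13, the next base, had 23.5% (8 of 34 reads, interval 10.7 to 41.2%). On the minus strand, site 4 at position 67893429 had 26.7% (4 of 15 reads, interval 7.79 to 55.1%) and site 3 at position 67893428 had 20% (3 of 15 reads, interval 4.33 to 48.1%). Each pair is a run of 2 uridines, and within such a run a deletion cannot be assigned to 1 base, so a pair need not be 2 modified bases. Thus 4 of the 17 sites had a listed neighbour, against a background of 11.0% of intronic sites of protein-coding genes. Over 337 such pairs that start at an intronic coding site, the levels of the neighbours differed by a median of 0.0 points (upper quartile 0.5 points), compared with 1.5 and 6.7 points in the RAD51B pairs.

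The other intermediate and high levels were those of sites 17, 10, 15 and 5. Site 17, at position 68540252, had 25% (5 of 20 reads, interval 8.66 to 49.1%), and it lies 1223 nt beyond site 16. Site 10, at position 67987129, had 20% (4 of 20 reads, interval 5.73 to 43.7%), and site 15, at position 68353380, had 20% (3 of 15 reads, interval 4.33 to 48.1%). Contexts 15 and 17 differ at 2 bases (T4G and T8C from site 15 to site 17). Site 5, at position 67897374, had 17.1% (7 of 41 reads, interval 7.15 to 32.1%), the highest level among the RAD51B sites with at least 40 reads.

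The remaining 4 sites were low. Site 6, at position 67909751, had 9.5% (4 of 42 reads, interval 2.66 to 22.6%), and site 9, at position 67965725, had 8.0% (4 of 50 reads, interval 2.22 to 19.2%). Site 11, at position 67997222, had 7.3% (3 of 41 reads, interval 1.54 to 19.9%). Site 14, at position 68312805, had 6.2% (3 of 48 reads, interval 1.31 to 17.2%), although its context differs from that of site 13 at only 2 bases (G3T and C10A from site 13 to site 14). At 9 of the 17 sites the lower bound of the interval was above 5%, the lowest level that the table lists. That bound follows from deletion reads and coverage, and its share over other intronic coding sites was not computed.

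Levels and coverage separated into a pair of groups that did not overlap. The 10 sites with fewer than 40 reads (15 to 34) all had levels of at least 20%, and the 7 sites with at least 40 reads (41 to 86) had levels of 5.8 to 17.1%, a split chosen after seeing the data. Among intronic sites of all protein-coding genes, 37.4% of those with fewer than 40 reads and 3.47% of those with at least 40 reached 20%. Summed reads gave 25.5% (interval 19.8 to 31.7%) in the first RAD51B group and 8.76% (interval 6.03 to 12.2%) in the second. Over intronic coding sites split at the same 40 reads, the summed levels were 18.1% and 12.6%. The deeper of these sets reached 15591 reads per site, against 86 in RAD51B, so its sum is weighted towards its deepest sites. By median over sites, the deeper RAD51B group had 8.0% (order-statistic interval 5.8 to 17.1%) beside 7.3%. The shallower RAD51B group also had the higher median. The table lists no site under 5% or under 3 deletion reads, so the lowest level that could be listed is 20% at 15 reads and falls to 5% at 60 reads. Level and coverage were therefore bound to run against each other, and their Spearman rho was -0.73 over the 17 sites and -0.77 over the 5894 intronic sites of other protein-coding genes. These sites share libraries and the listing rule.

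**Figure D2:**
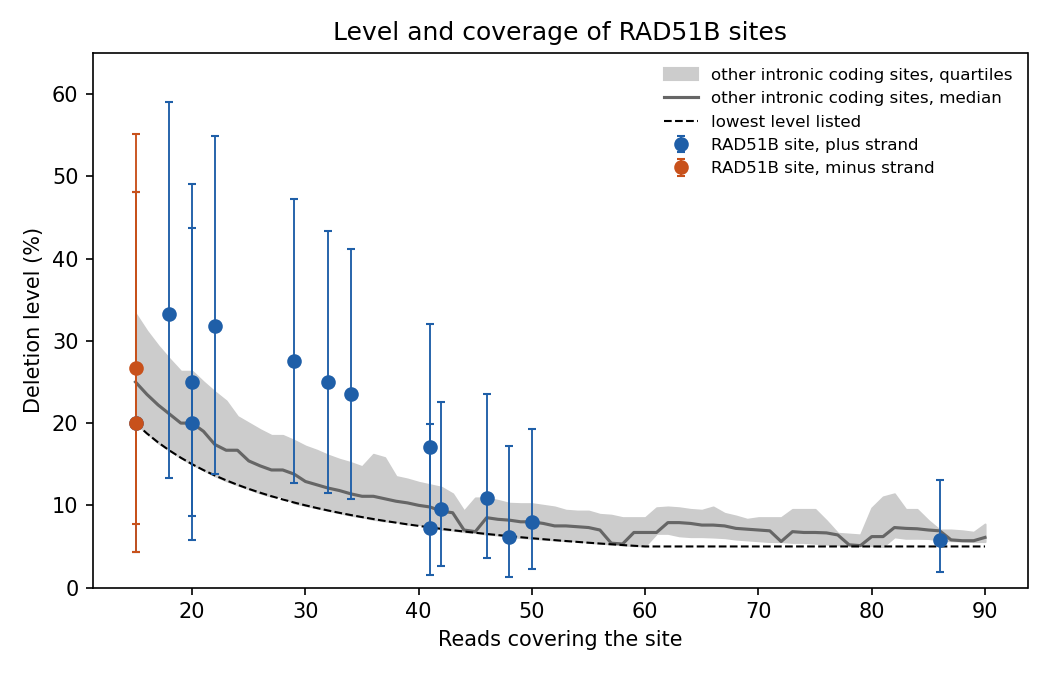
Deletion level in percent (vertical axis) against reads covering the site (horizontal axis). Coloured points are the 17 RAD51B sites with 95% Clopper-Pearson intervals, the grey line and band are the median and quartiles of intronic sites of other protein-coding genes with the same coverage within 1 read, and the dashed line is the lowest level listed. Most RAD51B points between 18 and 34 reads lie above the band, and those with at least 42 reads lie in or near it.

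Against intronic sites of other protein-coding genes with the same coverage within 1 read, 10 of the 17 levels were above the matched median, 2 equalled it and 5 were below it. At 6 sites the excess was at least 7 points. These were sites 1, 2, 5, 12, 13 and 16, covered by 18 to 41 reads, and their levels exceeded the matched median by 7.3 to 14.4 points. The next largest excess was 5.0 points, so the limit of 7 falls in a gap of these values. How many other intronic coding sites exceed their matched median by as much was not computed, so this count has no background. Site 2 had the largest excess, with 31.8% against a matched median of 17.4% over 571 sites, and site 1 had 27.6% against 13.8% over 430 sites. Sites 12 and 13, one run of 2 uridines, had 25% and 23.5% against 12.1% and 11.4%. The largest shortfalls were those of sites 3 and 15, which had 20% against 25%. The midrank percentile among matched sites had a median of 62.8 over the 17 sites and ranged from 17.8 (site 11) to 94.7 (site 13).

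**Figure D3:**
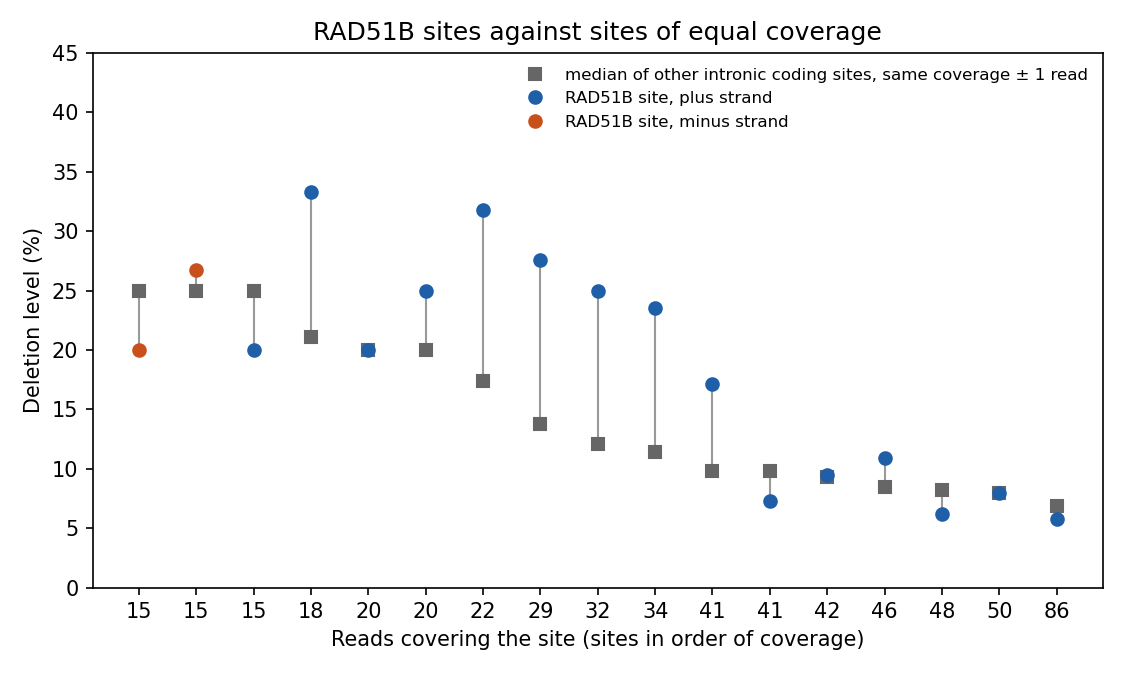
Deletion level in percent (vertical axis) of each RAD51B site (circles, coloured by strand) beside the median of intronic sites of other protein-coding genes with the same coverage within 1 read (squares), with sites ordered by reads covering them (horizontal axis). The 6 sites with the longest upward lines, 7.3 to 14.4 points, have 18 to 41 reads, and at 42 reads and above the circles lie close to the squares.

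A level of at least 20% was reached by 10 of the 17 sites, against a background of 27.4% of the 5911 intronic sites of protein-coding genes. Since the gene was chosen with its median level known, nothing further is read from that count. At least 4 deletion reads stood behind 13 of the 17 sites, against 60.5% in the background, and these reads are the product of level and coverage. The median coverage of RAD51B sites was 32 reads, beside 29 at the intronic sites of other protein-coding genes, and the median number of deletion reads was 5 beside 4.

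By strand, 15 of the 17 sites (88.2%, interval 63.6 to 98.5%) lay on the plus strand, which is that of the gene, and the 2 on the minus strand were the neighbours 3 and 4. The background was 95.9% of the 4883 intronic coding sites whose gene has a RefSeq strand. The minus-strand pair had the lowest coverage that the table lists, 15 reads each, while intronic coding sites on the strand opposite to their gene had a median coverage of 28 reads and a median level of 13.3%, beside 29 reads and 13.9% on the gene's own strand. RefSeq places no other gene at sites 3 and 4. Of the 12 other RefSeq genes that overlap RAD51B, 7 are long non-coding RNAs and 5 pseudogenes, and the lncRNA LOC105370546 on the minus strand (68121248 to 68167237) was the only one to contain RAD51B sites, namely 12 and 13.

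The flanking bases of the RAD51B sites held a median of 50% pyrimidines, beside 60% at intronic sites of other protein-coding genes. Runs of at least 2 uridines held 12 of the 17 sites, against a background of 60.5%, and runs of at least 4 held 4, against 23.6%. In the whole table, sites in runs were placed mostly at the last uridine on the plus strand (87.2%) and at the first on the minus strand (85.5%), which is the same end in genome coordinates, and 9 of the 10 plus-strand RAD51B sites in runs stood at the last. The base after the site was C or G at 13 of the 15 plus-strand sites, beside 61.4% of the 3119 plus-strand intronic sites of other protein-coding genes, and A at 1 (site 5), beside 31.7%.

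Sequence forms preferred by known pseudouridine synthases were present at 1 of the 17 sites. They were searched on the strand of the site alone, with the site as listed, R being a purine and H any base but G. Site 5 had the form URUAR, shared by PUS7 and PUS1, which was also that of 1.74% of intronic coding sites. None of the 17 had another UNUAR (PUS7, 3.74% of intronic coding sites), another HRUAR (PUS1, 2.55%) or GUUCNA (TRUB1, 0.389%). At 16 of the 17 none of the 4 forms was present, against a background of 91.6% of intronic coding sites. Of the 17 contexts, 16 were listed once in the whole table, against a background of 88.1% of intronic coding sites. The exception was the context of site 2, listed at 2 sites.

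RAD51B was compared with the other 24 genes that had at least 10 intronic sites, which together held 336 such sites. Only TENM1 (40 intronic sites), which encodes a teneurin, DNAH14 (19), a dynein heavy chain gene, and the ribosomal DNA locus ENSG00000280441 (19) had more intronic sites, and SLIT2 (17), an axon guidance ligand gene, had as many. MIR924HG, a long non-coding host gene, followed with 16. At the limit of the comparison, 7 genes had 10 intronic sites and 7 others had 9.

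In the order of median levels, AOPEP, an aminopeptidase gene, stood highest with 24.4% (quartiles 16.9 and 26.0%), and RAD51B with 20% was level with the long non-coding gene PVT1 at 20% (quartiles 10.2 and 32.5%). Below it came the long non-coding gene ENSG00000224905 with 18.2%, EXT1, a heparan sulfate polymerase, with 18.1%, and ENSG00000280441 with 16.4%. PCDH11X, a protocadherin gene, was lowest with 9.4%. A median over so few sites is imprecise: its order-statistic interval in RAD51B ran from 9.5 to 25%, which holds the medians of all the other genes but PCDH11X (9.4%) and NFIA (9.45%). The median of the other 24 medians was 13.1%.

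**Figure D4:**
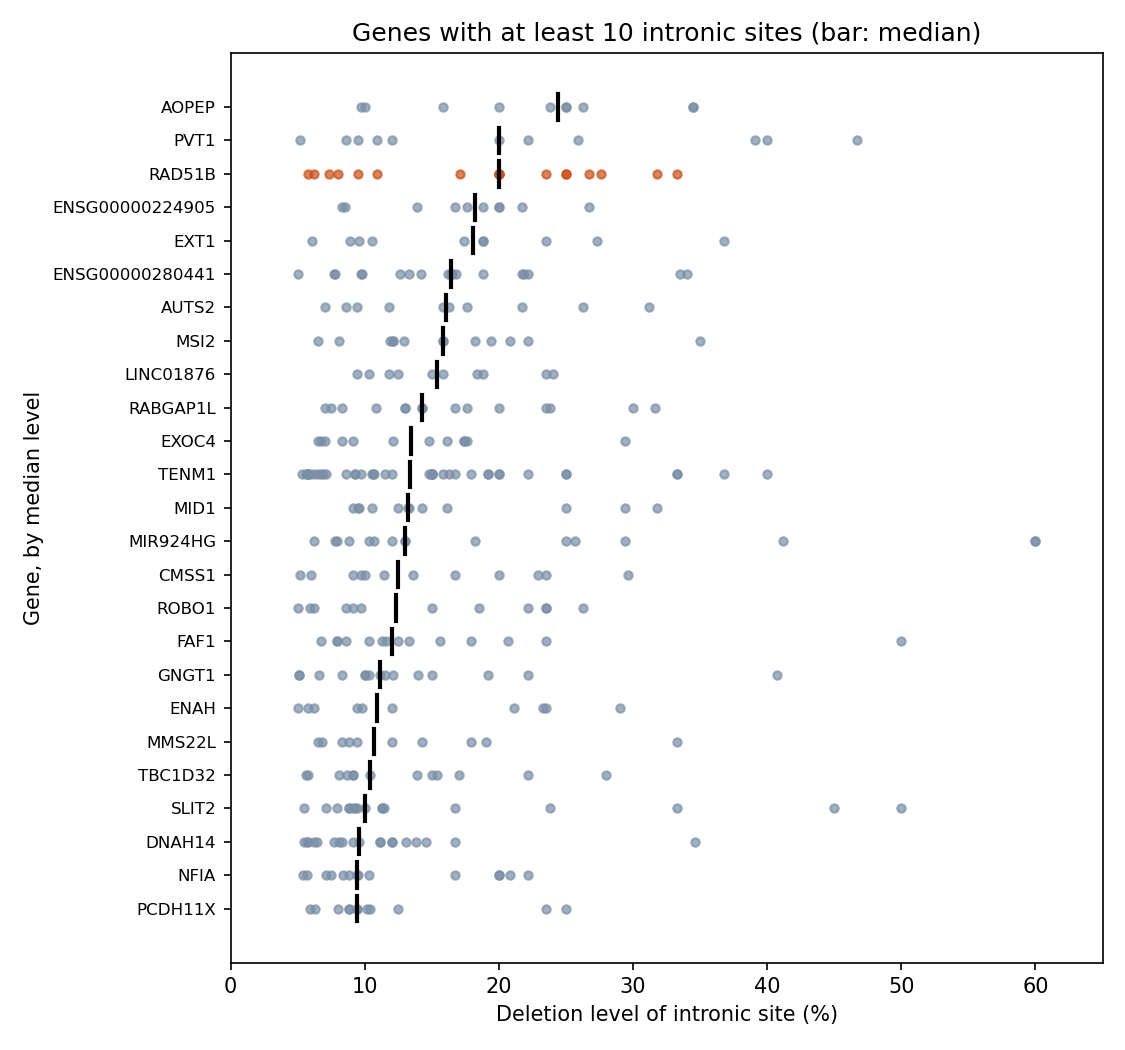
Deletion level in percent (horizontal axis) of every intronic site of the 25 genes with at least 10 such sites (vertical axis, ordered by median level). Points are sites, black bars are medians, and RAD51B is in orange; its points run from 5.8 to 33.3% and lie within the range of the other genes.

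The rank of RAD51B differed between ways of taking coverage into account. With sites of at least 20 reads alone it ranked 2 of 25 in median level, as it did over all sites. Set against sites of the same coverage, its median percentile of 62.8 was exceeded by 6 of the 24 genes, ENSG00000280441 (88.2), PVT1 (78.8), AUTS2 (71.2), MID1 (70.7), AOPEP (70.3) and SLIT2 (67.4), and it ranked 7 of 25. The value of ENSG00000280441 does not cover all its sites. Their median coverage was 25961 reads, while no intronic coding site had more than 15591. Most of its sites thus had no matched site and were left out of its percentile. AOPEP and PVT1 were covered by medians of 20.5 and 25 reads, fewer than the 32 of RAD51B. DNAH14, with as many intronic sites as ENSG00000280441, had a median level of 9.6% and a percentile of 22.5.

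By the largest gap between cumulative distributions of level (the Kolmogorov-Smirnov distance, used as a measure only), the most similar genes were MIR924HG with 0.213 over 16 sites, ENAH with 0.253 over 10, RABGAP1L with 0.255 over 15, ROBO1 with 0.270 over 12 and PVT1 with 0.273 over 11. Their medians lay between 10.9% and 20%. MIR924HG had the same broad spread, with quartiles of 9.93 and 26.6%, beside 9.5 and 25% in RAD51B.

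RAD51B was among the longest genes of this group. With 863.3 kb it was shorter than only 2 of the 22 other genes that have a RefSeq length, AUTS2 (1195.0 kb) and ROBO1 (1170.8 kb). It held 1.97 intronic sites per 100 kb, fewer than 17 of the 22 and more than 5, beside a median of 3.22 in the others. GNGT1, among the 17, has a RefSeq length of 4.7 kb although its sites lie a median of 9.35 kb apart. That length does not span its sites, so its place in both orders is not reliable. The minimum of 10 sites admits a short gene only at a high density, so this order follows length in part. Among genes of similar length, TENM1 (828.4 kb) held 4.83 per 100 kb and RABGAP1L (835.8 kb) 1.79, and PCDH11X (843.9 kb) and EXOC4 (847.9 kb) held 1.42 each. The longer ROBO1 and AUTS2 held 1.02 and 0.837. Of the 19 other genes with a RefSeq strand, all had most of their sites on their own strand and 11 had all of them there. RAD51B, with 88.2%, stood below 17 of the 19 and above MMS22L (70%) and TBC1D32 (76.9%).

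Around RAD51B, intronic sites were few, while sites of all regions were about as dense as within it. The 5 nearest protein-coding genes on each side (ARG2, VTI1B, RDH11, RDH12 and ZFYVE26 before it, ZFP36L1, ACTN1, DCAF5, EXD2 and GALNT16 after it) span 593.9 kb in sum, and 8 of the 10 had a site, beside 25.5% of RefSeq protein-coding genes. They held 11 sites in all, or 1.85 per 100 kb. Of these 11 only 2 were intronic, 1 in VTI1B, a SNARE protein gene, and 1 in ZFP36L1, which encodes an mRNA decay factor, or 0.337 per 100 kb, beside 1.97 in RAD51B. Levels in these genes ran from 6.4% in ARG2 to 31.2% in VTI1B. The longest of the 10 was GALNT16 with 126.7 kb. RAD51B was selected on its number of intronic sites and these 10 genes were not, so the intronic densities are not a like comparison.

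Among 49 genes of homologous recombination and its regulation, a list drawn up with earlier results of the table known, 32 had a site (65.3%), beside 25.5% of the 20056 RefSeq protein-coding genes. Length was not matched in this description, and no test was made. The 32 genes held 83 sites, 17 of them in RAD51B and 66 in the other 31, of which 14 had 1 site each. The longest other member with a site, BRIP1, spans 184.4 kb.

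The partners of RAD51B named above and XRCC3 had few sites. XRCC2 had 2, at 6.1 and 8.3%, and RAD51C had 1 intronic site at 8.8% (3 of 34 reads), while no site was listed for RAD51D or XRCC3. The XRCC2 site at 8.3% (3 of 36 reads) was listed as 3′UTR on the plus strand. Sites of the recombination list were not compared with the strand of their gene.

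Other members of the list with at least 2 sites were these. FANCD2, a Fanconi anemia protein gene, and POLQ, the polymerase of an alternative end joining pathway, had 5 each, with medians of 11.8% and 16.7%. BRIP1, a helicase gene, had 4, up to 30% (6 of 20 reads), EXO1, a resection nuclease, 4, up to 25%, and RAD54B, a DNA translocase, 4, up to 17.3%. The 6 genes with 3 sites were ATR, BRCA2, FANCI, MND1, MRE11 and WRN. WRN, a RecQ helicase gene, had the highest median of these, 25%, and reached 34.5% (10 of 29 reads, interval 17.9 to 54.3%), above the 33.3% of RAD51B site 16. ATM, FANCM, RAD50, RMI1, RPA2 and XRCC2 had 2 each, and RMI1, a partner of the BLM helicase, reached 27.3% (6 of 22 reads).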

How the data were processed

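Deletion levels were deposited by the authors as a fraction per site, per the file headers, and are printed as percentages. Coverage is the count of reads over each site as deposited. Each p-value and FDR is the authors' deposited value, from a test that is not named. The build is hg38, per the submitters' processing notes, and the sources used here name no aligner, caller or annotation. Level times coverage gave whole deletion reads within rounding of the level (0.0005). Positions are 1-based: at all 69 sites inside RefSeq promoter windows the deposited context equalled the reference. Gene lengths, strands and neighbours came from RefSeq tables of GRCh38.p14, and 82.6% of intronic coding sites had a gene with 1 RefSeq strand. Intervals are 95% Clopper-Pearson intervals, or order-statistic intervals for medians. With 1 pooled value per site no sample was a replicate and no test was run. A gene of the recombination list is not reported here. The members, lists and comparisons were chosen with earlier results of these data known. Named were all RAD51B sites, comparison genes with the most sites, those next to RAD51B in median level, the extremes and the 5 most similar, and list members with at least 2 sites; others were named after their values were seen. Computations used Python 3.11.15, pandas 2.3.3, NumPy 2.4.6, SciPy 1.17.1 and Matplotlib 3.10.9, and were tested on simulated data.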

Additional observations from a re-analysis of the deposited data

How the results depend on the processing

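Of 22 recomputed values, 18 stayed within the interval of the reported value or within 1.5 times a reported count. With coverage of at least 30 reads, 9 of the 17 sites remained and their median level was 9.5%, less than the 20% over all sites although still at the edge of its interval. With coverage of at least 20, 13 sites were left, all on the plus strand (100%), and the median was 17.1%. Among the 17 genes with at least 12 intronic sites RAD51B ranked 1 in median level, and against sites of the same coverage it ranked 7 of 25. The protein-coding genes taken alone, and the recombination list with fewer reads removed (24 members with a site at 4 or more deletion reads, 30 at 20 or more reads), were added after seeing the data. No paired analysis was possible because the table has no column per library. Deletion reads of 3 to 8 per site limit every comparison between single sites.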

Other observations

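A site assigned to another gene lay inside the span of RAD51B. The long non-coding gene ENSG00000258837 had a site on the minus strand at chromosome 14 position 68132612, in the context ctttcTttgtt, with 14.3% (3 of 21 reads, interval 3.05 to 36.3%). It lies 8 nt from RAD51B site 12, which is on the plus strand and had 25% (8 of 32 reads). Site 12 was one of the 6 sites at least 7 points above their coverage-matched median. The minus-strand site was the only listed site of another gene between the RefSeq ends of RAD51B.

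MMS22L, one of the 24 comparison genes, encodes a protein that acts in homologous recombination at stalled replication forks, and it was not in the list of 49. It had 10 intronic sites within 141.9 kb, or 7.05 per 100 kb, at a median level of 10.7%, and 7 of the 10 lay on its own strand.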
